A study of Mus musculus with 12 samples.

Results

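Grk5, Ppard, Dnmt3b, Lonrf3 and Meox1 are 5 genes picked for a high level in livers of 6-week-old interleukin-18 knockout mice. They were chosen from earlier results of these same arrays, by their levels over all 4 groups of the study, so that pattern is described here and not tested. Every probe that the array files name for them was used, which gave 8 of 55681 probes, and all 8 passed the filter that left 22128 genes to test. Grk5, Ppard and Meox1 had 1 probe each, Lonrf3 had 2 and Dnmt3b had 3. The label of the group held for 4 of the genes. It did not hold for Meox1, of which 1 array of 12-week wild type liver had more than the lowest 6-week knockout array.

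Whole livers came from BALB/c mice of 2 genotypes and 2 ages, and 12 arrays of total RNA were made, 3 in each group: interleukin-18 knockout at 6 weeks, wild type at 6 weeks, knockout at 12 weeks and wild type at 12 weeks. No animal was treated. Interleukin-18 is a cytokine of the inflammasome, which matures it together with interleukin-1 beta. The labels call the arrays of a group biological replicates and do not state their sex, the hour of collection or which part of Il18 was deleted.

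The genes have separate roles. GRK5 is a kinase that phosphorylates activated G protein-coupled receptors, which then bind arrestins and lose their coupling. PPAR-delta, the product of Ppard, is a nuclear receptor that binds fatty acids, pairs with retinoid X receptors and switches on genes of fatty acid oxidation. DNMT3B places methyl groups on unmethylated CpG sites, with S-adenosylmethionine as the donor, and is best known from the embryo. LONRF3 belongs to a small family of proteins with RING fingers and a LON domain, which are ubiquitin ligases. MEOX1 is a homeobox transcription factor of the somites of the embryo.

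The probes are shown by their first 30 of 60 bases, because each value below is the signal of that oligonucleotide alone. Positions are those of the array files, on mm9. No annotation of the coding and untranslated exons on that build was used here. Grk5 was read at chr19:61168035-61168094 on the plus strand, Ppard at chr17:28438298-28438357 on the plus strand and Meox1 at chr11:101738847-101738906 on the minus strand. The Dnmt3b probes lay at chr2:153512098-153512157, chr2:153512991-153513050 and chr2:153513403-153513462, all on the plus strand. The Lonrf3 probes lay at chrX:33902253-33902312 and chrX:33906756-33906815, both on the plus strand. Within each of these genes the probes were spaced equally far apart on the genome and in the transcript record, so no intron separated them.
Grk5, A_52_P141488: ccccaataacaaacctccaagtttctcaaa
Ppard, A_66_P124715: agtctccaaatctgaaatgtatatttttgc
Dnmt3b, A_55_P1975903: tgtttgcccccttgaaggaccactttgcct
Dnmt3b, A_55_P2008874: tcaggtccccagaaccccctagttcctcat
Dnmt3b, A_55_P2130535: gtgcaaagatgacagatgcccagagtttac
Lonrf3, A_51_P479818: agagatactaatgttactgcattctttcac
Lonrf3, A_66_P105422: acaaaaatagttccagctcatctacgttgt
Meox1, A_55_P2034245: ctaagattacatcaagctaattgtgcaagg

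All levels are log2 of the processed signal minus the 75th percentile of the array, so a level of 0 is the brightness that 75% of probes stayed under, and differences of levels are log2 fold changes. Levels of different probes are not compared. The 75th percentile ran from 349 to 420 in scanner units, and 50.1% to 57.7% of probes were well above background. Il18 ran from -0.37 to 0.04 on the 6 knockout arrays and from 2.15 to 2.49 on the 6 wild type arrays, with no overlap. The arrays lay on 2 slides. The 3 arrays of the 6-week wild type and replicate 1 of the 12-week wild type were on slide 1, and the other 8 arrays were on slide 2. Knockout and wild type at 6 weeks therefore shared no slide, and between them genotype and slide cannot be told apart without the 12-week wild type. Every comparison of the 6-week with the 12-week knockout was within slide 2. With 3 arrays a group, the number of arrays limits the precision. In whole liver, fewer cells of a type and less RNA per cell cannot be told apart.

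Grk5 was 12.2-fold higher in knockout than in wild type livers at 6 weeks, and at 12 weeks it was lower in the knockout. Its level was 1.65, 1.51 and 1.49 in the 6-week knockout, against -1.98, -1.94 and -2.24 in the 6-week wild type. At 12 weeks it was -1.14, -1.42 and -1.49 in the knockout, against -0.64, -0.74 and -0.67 in the wild type. No array of any group overlapped with an array of another group, and the order from the top was 6-week knockout, 12-week wild type, 12-week knockout and 6-week wild type. The knockout minus wild type difference was 3.60 ± 0.11 (SE, n = 3 per group) at 6 weeks and -0.67 ± 0.11 at 12 weeks. Between ages, Grk5 differed by -2.90 ± 0.11 in the 12-week minus the 6-week knockout. The same difference in wild type was 1.37 ± 0.11, and the 12-week wild type array that shared slide 1 with the 6-week wild type also lay above all 3 of them.

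Ppard was 5.23-fold higher in knockout than in wild type livers at 6 weeks, and the 3 groups besides the 6-week knockout had nearly the same level. It was 3.56, 2.49 and 2.35 in the 6-week knockout, against 0.54, 0.28 and 0.40 in the 6-week wild type. At 12 weeks it was 0.53, 0.36 and 0.34 in the knockout, against 0.46, 0.50 and 0.35 in the wild type. The 6-week knockout did not overlap with any other array, while the other 3 groups overlapped throughout and their means, 0.41, 0.41 and 0.44, differed by less than their spread. The difference between genotypes was 2.39 ± 0.25 (SE, n = 3 per group) at 6 weeks and -0.02 ± 0.25 at 12 weeks. Replicate 1 of the 6-week knockout stood above the other 2. Without it the 6-week knockout minus the mean of the other 3 groups was 1.998, against 2.38 with all arrays.

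Dnmt3b was 7.24-fold higher in the 6-week knockout by the probe that was brightest on average, and higher by all 3 probes. By that probe, A_55_P2130535, the level was 1.46, 1.30 and 0.99 in the 6-week knockout, against -1.71, -1.37 and -1.74 in the 6-week wild type. At 12 weeks it was -1.20, -1.35 and -0.93 in the knockout, against -1.10, -0.76 and -1.63 in the wild type. The 6-week knockout lay above all 9 other arrays, and at 12 weeks the genotypes overlapped and had the same mean of -1.16. The genotypes differed by 2.86 ± 0.22 (SE, n = 3 per group) at 6 weeks and 0.00 ± 0.22 at 12 weeks.

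The size of the Dnmt3b difference depended on the probe. At position 2950 of the transcript record (A_55_P1975903) the 6-week knockout ran from -0.17 to 0.07, against -1.21 to -1.07 in the 6-week wild type, a difference of 1.05 ± 0.22. At position 3843 (A_55_P2008874) the 6-week knockout ran from -0.78 to -0.08, against -2.66 to -2.38, a difference of 2.14 ± 0.20. At position 4255 (A_55_P2130535) the difference was the 2.86 given above. The difference between genotypes was thus larger at each probe nearer the 3′ end. Each SE is that of 1 probe's own difference, and the steps between probes, read on the same arrays, were not tested. Whether the position or another trait of the probes set this order was not tested either. The 12-week minus 6-week difference in the knockout followed the same order, at -1.42 ± 0.22, -2.03 ± 0.20 and -2.41 ± 0.22 from the most 5′ to the most 3′ probe. The most 5′ probe had its widest group in the 12-week wild type, from -1.79 to -0.66, and its lowest 6-week knockout array lay 0.49 above the highest other array.

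Lonrf3 was 4.03-fold higher in the 6-week knockout by its brighter probe. By that probe, A_66_P105422, the level was 1.57, 1.18 and 1.27 in the 6-week knockout, against -0.13, -1.13 and -0.75 in the 6-week wild type. At 12 weeks it was -0.44, -0.18 and 0.01 in the knockout, against -0.10, -0.85 and -0.74 in the wild type. The 6-week knockout stood apart and the other 3 groups overlapped. The difference between genotypes was 2.01 ± 0.26 (SE, n = 3 per group) at 6 weeks and 0.36 ± 0.26 at 12 weeks.

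The other Lonrf3 probe, A_51_P479818, gave the same difference at 6 weeks and another order among the low groups. It ran from -0.59 to -0.44 in the 6-week knockout, against -2.90 to -2.66 in the 6-week wild type, a difference of 2.30 ± 0.15. At 12 weeks it ran from -2.82 to -2.17 in the knockout, against -1.79 to -1.62 in the wild type, with no overlap. Knockout minus wild type at 12 weeks was -0.78 ± 0.15 by this probe, where the brighter probe gave 0.36, and the 12-week minus 6-week difference in wild type was 1.10 ± 0.15, where the brighter probe gave 0.11. By this probe the groups of Lonrf3 fell in the same order as those of Grk5, though the 12-week knockout and the 6-week wild type overlapped.

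Meox1 was dim and followed genotype in opposite directions at the 2 ages. Its level was -1.69, -1.94 and -2.91 in the 6-week knockout, against -4.25, -4.07 and -3.79 in the 6-week wild type. At 12 weeks it was -4.52, -5.31 and -4.62 in the knockout, against -2.31, -3.44 and -3.52 in the wild type. At either age the genotypes did not overlap, with knockout above wild type at 6 weeks and below it at 12 weeks. Replicate 1 of the 12-week wild type, which lay on slide 1, was higher than replicate 3 of the 6-week knockout by 0.60. The difference between genotypes was 1.86 ± 0.39 (SE, n = 3 per group) at 6 weeks, or 3.62-fold, and -1.73 ± 0.39 at 12 weeks. The probe was well above background on 3 arrays of the 6-week knockout, 2 of the 6-week wild type, 1 of the 12-week knockout and 3 of the 12-week wild type. The sizes of both differences thus rest in part on signals not well above background. With a background correction that damps low signals (normexp), Meox1 in the 6-week knockout exceeded the mean of the other 3 groups by 0.78, against 1.80 with the processed signal.

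**Figure D1:**
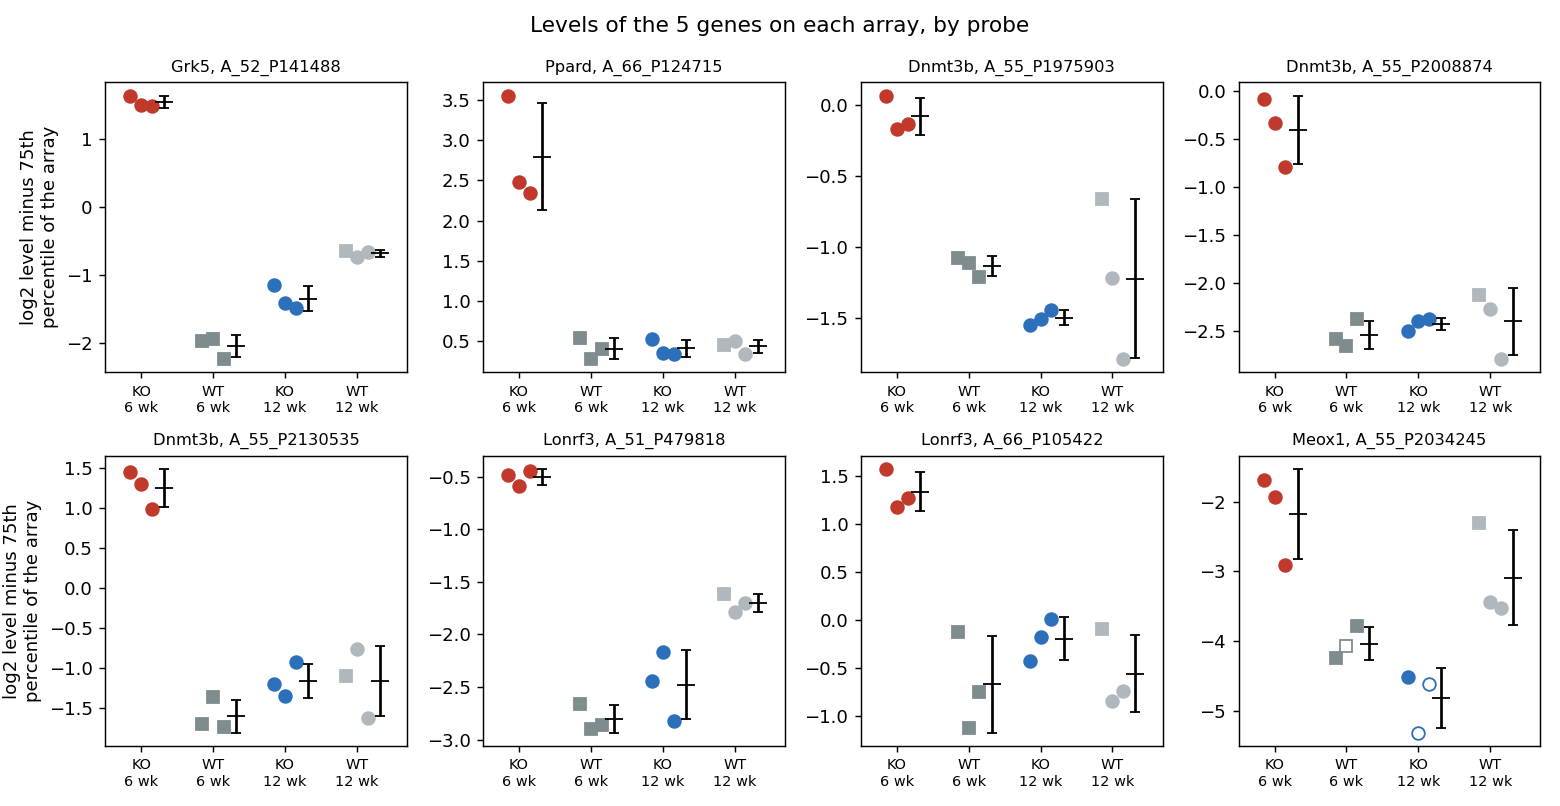
Log2 level, as the log2 signal less the 75th percentile of its array (vertical axis, a scale of its own in each panel) on each of the 12 arrays, by probe, for the knockout and wild type at 6 and at 12 weeks. Squares are arrays of slide 1 and circles of slide 2, open symbols were not well above background, and the bar to the right of each group is its mean ± SD (n = 3). The 6-week knockout lies above the other 9 arrays in every panel but that of Meox1.

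The 6-week knockout minus the mean of the other 3 groups was 2.91 ± 0.09 for Grk5, 2.56 ± 0.18 for Dnmt3b, 2.38 ± 0.21 for Ppard, 1.82 ± 0.22 for Lonrf3 and 1.80 ± 0.31 for Meox1 (SE), or from 7.53-fold for Grk5 to 3.49-fold for Meox1. In 4 of the 5 genes all 3 arrays of the 6-week knockout lay above all 9 others, which was true of 995 genes, or 4.5% of those tested, and is how the genes were chosen. The 6-week wild type lay above all others in 1170 genes, the 12-week knockout in 1075 and the 12-week wild type in 258. The gap between the lowest 6-week knockout array and the highest other array was 2.13 for Grk5, 1.81 for Ppard, 1.76 for Dnmt3b and 1.16 for Lonrf3, which ranked 2, 5, 6 and 9 among all genes. Meox1 had a gap of -0.60. At 6 weeks alone the knockout lay above the wild type in all 5 genes (25.3% of all genes). At 12 weeks alone it lay below the wild type in 2 of them, Grk5 and Meox1 (9.87% of all genes). These counts are by the probe with the highest mean, and by its other probe Lonrf3 lay below the wild type at 12 weeks too.

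Within slide 2 the 6-week knockout could be set against both 12-week groups. The 2 arrays of the 6-week knockout that shared a row of that slide with 2 arrays of the 12-week wild type lay above them by every one of the 8 probes, with gaps from 1.04 to 2.18. The array that shared a row with the 3 arrays of the 12-week knockout lay above those by every probe too, with gaps from 1.26 to 2.64. Over the arrays of slide 2 alone, the 6-week knockout minus the mean of the 12-week groups was 2.58 for Grk5, 2.38 for Ppard, 2.43 for Dnmt3b, 1.84 for Lonrf3 and 1.97 for Meox1. With all arrays these values were 2.57, 2.37, 2.41, 1.72 and 1.78. The difference of the genotypes at 6 weeks with the slide as a fixed block, which rests on 1 array, was 3.67 for Grk5, 2.42 for Ppard, 2.96 for Dnmt3b, 2.71 for Lonrf3 and 3.03 for Meox1. As folds, those of Lonrf3 and Meox1 thereby moved by more than 1.5 times.

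**Figure D2:**
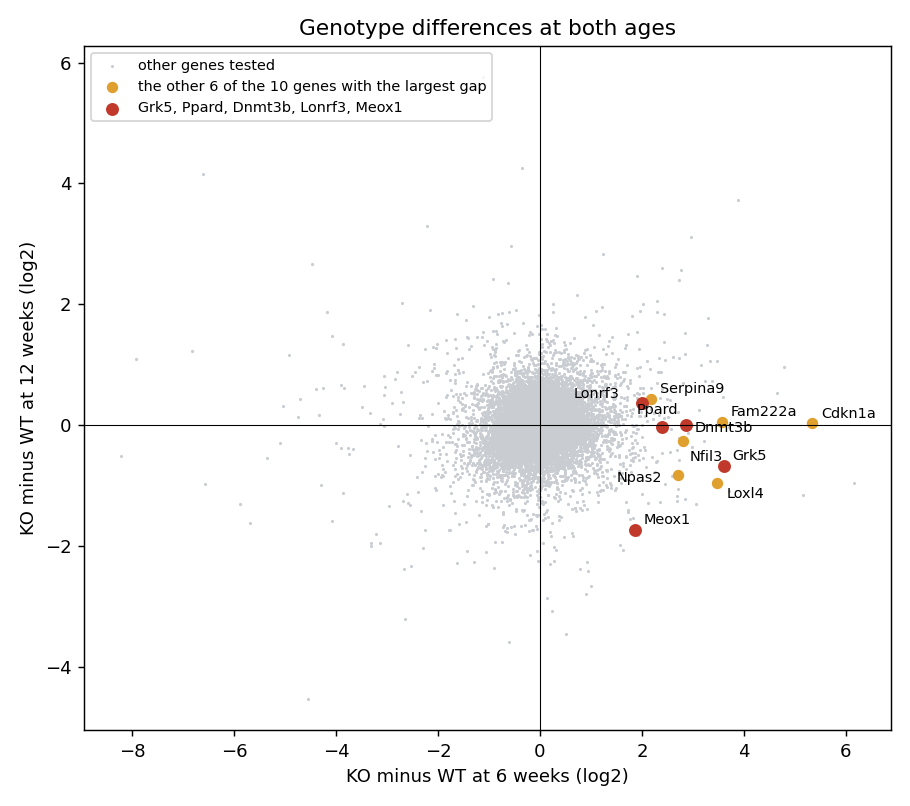
Knockout minus wild type at 6 weeks (horizontal axis, log2) against the same at 12 weeks (vertical axis, log2) for the 22128 genes tested, a point each; the 5 genes are red and the other 6 of the 10 genes with the largest gap are orange. Ppard, Dnmt3b and Lonrf3 lie near 0 on the vertical axis, at -0.02, 0.00 and 0.36, while Grk5 and Meox1 lie below it at -0.67 and -1.73. Each gene is shown by its probe with the highest mean, and the other Lonrf3 probe gave -0.78 at 12 weeks.

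**Figure D3:**
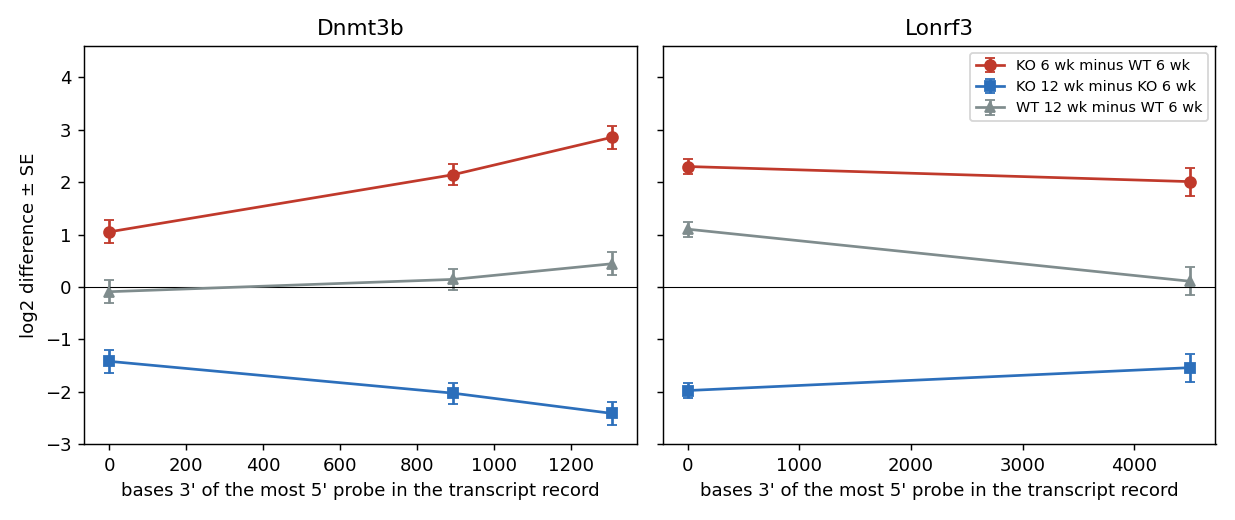
Log2 differences ± SE (vertical axis) of the probes of Dnmt3b and Lonrf3 by their distance in bases from the most 5′ probe in the transcript record (horizontal axis), for 3 comparisons. The knockout minus wild type difference at 6 weeks is 1.05, 2.14 and 2.86 for Dnmt3b and 2.30 and 2.01 for Lonrf3.

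Few genes stood as far apart in the 6-week knockout. A gap above 1 was found for 13 genes, or 0.0587% of those tested, and the corresponding gap below the other arrays for 12 genes, or 0.0542%. The 6-week wild type, all on slide 1, had 40 genes above and 38 below the other arrays by such a gap. The 12-week knockout had 2 and 2, and the 12-week wild type 9 and 5. The 10 genes with the largest gap held 4 of the 5 members. The other 6 were Cdkn1a, Npas2, Loxl4, Nfil3, Fam222a and Serpina9, and all are listed for the size of their gap with no test. Cdkn1a encodes p21, an inhibitor of cyclin-dependent kinases, and had the largest gap, 3.05, with a mean of 1.60 in the 6-week knockout, against -3.74 in the 6-week wild type. NPAS2 is a paralog of the clock activator CLOCK, and Npas2 cleared background on all 3 arrays of the 6-week knockout but on 0 of the 6-week wild type and 0 of the 12-week knockout, which gives at least 1.79-fold more than the 6-week wild type. Loxl4 encodes a lysyl oxidase that crosslinks collagen and had a gap of 1.85. Nfil3 encodes a repressor that competes with the clock output factor DBP for its sites and had a gap of 1.67.

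**Figure D4:**
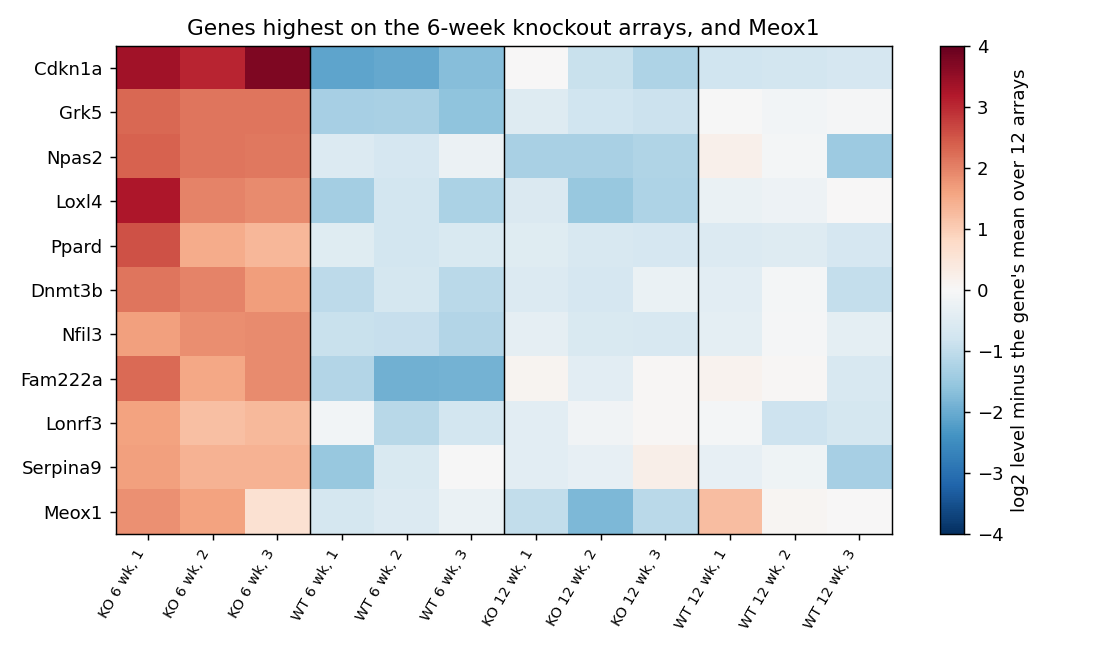
Log2 level minus the mean of the gene over the 12 arrays (colour, red above and blue below) for the 10 genes with the largest gap, from the largest down, and for Meox1, on the 12 arrays of the 4 groups (columns). All 3 columns of the 6-week knockout are red in every row, and the row of Meox1 is also clearly red in replicate 1 of the 12-week wild type (level -2.31). Other cells outside the 6-week knockout are pale or blue.

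The genes whose levels ran most like those of each member were found by Pearson's r over the 12 arrays. These arrays share the step between the 6-week knockout and the rest, which by itself gives a high r, so r is also given for the deviations from the group means. For Grk5 the closest genes included Pnrc1 (0.99), Nfil3 (0.98), Tspan14 (0.98) and Lnx2 (0.97), and within groups these had r from -0.15 to 0.58. PNRC1 is a coregulator of nuclear receptors. For Ppard they were Dnmt3b (0.95), Ccdc103 (0.95), Loxl4 (0.95), Commd7 (0.94) and Atp8b5 (0.94), with r from 0.26 to 0.74 within groups. For Dnmt3b they were Nfil3 (0.97), Abca1 (0.97), Masp2 (0.96), Gmeb1 (0.96) and Ppfia1 (0.96), with r from 0.23 to 0.82 within groups. ABCA1 is a cholesterol exporter and MASP2 a protease of the lectin pathway of complement.

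For Lonrf3 the closest genes were Ppard (0.92), Jmjd8 (0.91), Abtb2 (0.91), Cdc42bpb (0.91) and Dnmt3b (0.90), with r from -0.05 to 0.66 within groups. For Meox1 they were G6pc (0.93), Tmem178b (0.92), Aph1b (0.92), Avpr1a (0.91) and Nectin1 (0.91), with r from 0.37 to 0.67 within groups. G6pc encodes the glucose-6-phosphatase of the liver and Avpr1a a vasopressin receptor. All of the genes closest to Meox1 had, like it, opposite signs at the 2 ages. This follows in part from their choice by r over the arrays of all groups. The log2 difference of knockout minus wild type was 1.89 at 6 weeks and -1.76 at 12 weeks for G6pc, and 0.84 and -0.85 for Avpr1a. Among the 5 members themselves, r ran from 0.63 (Lonrf3 with Meox1) to 0.95 (Ppard with Dnmt3b) over the 12 arrays, from -0.05 to 0.47 within groups, and from -0.18 to 0.54 over the 9 arrays without the 6-week knockout.

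Genes that work with the members were counted next, in lists drawn up with earlier results of these arrays known. Calls are from limma's moderated test with the Benjamini-Hochberg adjustment over all 22128 genes. At 6 weeks 21.1% of genes differed between knockout and wild type, 11.7% higher and 9.35% lower in the knockout, and with the slide as a fixed block 588 genes did, against 4661 without it. At 12 weeks 8.21% differed, 5.65% higher and 2.56% lower. Between the 12-week and the 6-week knockout 6.91% differed, 3.98% higher and 2.93% lower at 12 weeks.

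Among the partners of GRK5, that is other receptor kinases, arrestins, calmodulins and adrenergic and angiotensin receptors, 3 of 15 tested genes were higher and 1 lower in the knockout at 6 weeks, with a median difference of 0.14 beside 0.02 over all genes. Adrb3, the beta-3 adrenergic receptor, was higher by 0.82 ± 0.14 (SE, adjusted p = 0.00400), and Adra1b, the main alpha-1 receptor of mouse liver, by 0.52 ± 0.09 (adjusted p = 0.00504). Grk3, another kinase of the family, fell by 0.73 ± 0.15 (adjusted p = 0.00779). Adrb3, Adra1b and Grk3 did not pass with the slide as a fixed block, where their adjusted p was 0.131, 0.126 and 0.0588. The other tested probe of each of Adrb3, Adra1b and Grk3 did not pass, with differences of 0.58, 0.24 and 0.55. For Grk3 that is the opposite sign, so the direction of its difference at 6 weeks depended on the probe. At 12 weeks, by the probes with the highest mean, Adrb3 was again higher, by 0.74, and Grk3 fell by 0.76.

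Of 22 tested genes for PPAR receptors, their partners and genes that PPAR-delta activates, 5 were higher and 4 lower in the knockout at 6 weeks, with a median difference of 0.00. Pdk4, which encodes a kinase that shuts down pyruvate oxidation and is a target of PPAR-delta, was 5.12-fold higher. Its level was 0.79 in the 6-week knockout, against -1.57 in the 6-week wild type (2.36 ± 0.27, adjusted p = 0.000426, or 0.0519 with the slide as a fixed block), and at 12 weeks it fell by 1.28 ± 0.27 in the knockout (adjusted p = 0.0193). Vldlr, a lipoprotein receptor gene, fell by 3.13 ± 0.41 in the knockout (adjusted p = 0.00102), with means of -0.78 in the 6-week knockout and 2.35 in the 6-week wild type, beside -0.80 and -0.82 in the 12-week knockout and wild type. Pparg, the gene of a sister receptor, fell by 1.12 ± 0.18 (adjusted p = 0.00278) and the coactivator gene Ppargc1b fell by 1.69 ± 0.27 (adjusted p = 0.00291). Under the fixed slide block their adjusted p was 0.0986 and 0.143. In the 12-week against the 6-week knockout 4 genes of this list were higher and 1, Pdk4, lower.

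Of 18 tested genes that write, read or remove DNA methylation, 4 were higher and 2 lower at 6 weeks, with a median of 0.00. The maintenance methyltransferase Dnmt1 differed by -0.13, the other de novo enzyme Dnmt3a by -0.19 and their cofactor Dnmt3l by -0.04, and none of these passed the test. Uhrf1, which brings DNMT1 to replicating DNA, was higher by 1.03 ± 0.27 (adjusted p = 0.0262), Tet2, which oxidises methylcytosine, by 0.54 ± 0.14 (adjusted p = 0.0255, with neither of its other probes past the threshold), and the methyl-CpG reader Mbd2 by 0.28 ± 0.06 (adjusted p = 0.0143). Gadd45a, a stress gene tied to demethylation, fell by 1.60 ± 0.41 (adjusted p = 0.0229). With the slide as a fixed block the adjusted p of these 4 ran from 0.239 to 0.778. No DNA methylation was measured.

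The supply of S-adenosylmethionine, the methyl donor of DNMT3B, had 3 of 10 genes higher and 4 lower at 6 weeks, with a median of -0.17. Bhmt, which remethylates homocysteine with betaine, was higher by 0.65 ± 0.10 (adjusted p = 0.00172, or 0.0300 with the slide as a fixed block). Nnmt, which spends the donor on nicotinamide, fell by 2.32 ± 0.42 (adjusted p = 0.00533), and Mat1a, the liver's S-adenosylmethionine synthetase, fell by 1.07 ± 0.20 (adjusted p = 0.00651). Under the fixed slide block their adjusted p was 0.111 and 0.123.

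Of 12 tested genes for LON-domain proteins and ubiquitin ligases of protein quality control, 1 was higher and 0 lower at 6 weeks by limma's test, against 2 and 1 at an unadjusted p under 0.05. This was Syvn1, a ligase of the endoplasmic reticulum, higher by 0.99 ± 0.26 (adjusted p = 0.0254, or 0.839 with the slide as a fixed block), and its other probe gave -0.07. Of 12 genes for mesoderm factors related to Meox1 and for the cell cycle inhibitors that MEOX proteins switch on in cultured cells, only 2 were bright enough to test. Of these Cdkn1a was higher by 5.34 ± 0.28, or 40.5-fold (adjusted p = 6.59e-06, or 0.00290 with the slide as a fixed block), and Uncx did not pass. Meox2 was among the 10 not tested.

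Of 21 genes of the circadian clock, at 6 weeks 5 were higher in the knockout and 12 lower, and 4 and 10 with the slide as a fixed block. In 5 of them all 3 arrays of the 6-week knockout lay above the other 9 (4.5% of all genes) and in 10 below (2.41% of all genes). Dbp, an output factor of the clock, fell by 6.82 ± 0.26 (adjusted p = 6.28e-07), and Nfil3 was higher by 2.80 ± 0.13 (adjusted p = 3.46e-06). The genotype difference itself changed with age in 10.3% of all genes, and 12 minus 6 weeks it was 8.06 for Dbp and -3.07 for Nfil3. At 12 weeks 10 clock genes were higher in the knockout and 0 lower by limma's test, against 11 and 2 at an unadjusted p under 0.05. The time of day at which livers were taken is not given, and its part in the levels of the members was not tested.

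Of 15 genes that glucocorticoids or fasting induce, 4 were higher and 2 lower at 6 weeks, with a median of 0.31. G6pc was higher by 1.89 ± 0.29 (adjusted p = 0.00222) and Tat, a tyrosine aminotransferase gene, by 0.92 ± 0.20 (adjusted p = 0.0115). Under the fixed slide block their adjusted p was 0.0602 and 0.196. The metallothionein gene Mt1 fell by 3.66 ± 0.38 (adjusted p = 0.000257) and Mt2 fell by 3.91 ± 0.50 (adjusted p = 0.000851), with 0.0410 and 0.0796 under the slide block. The feeding state is not given in the labels, and its part in the levels of the members was not tested.

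**Figure D5:**
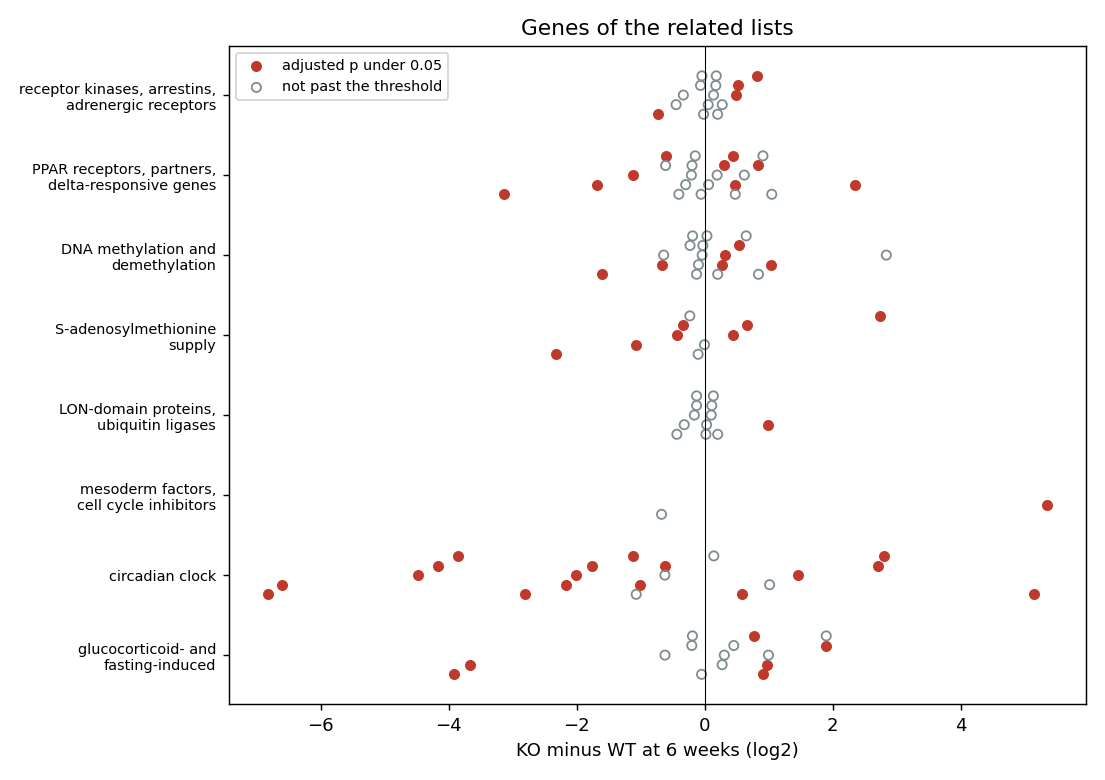
Knockout minus wild type at 6 weeks (horizontal axis, log2) for each tested gene of the 8 related lists (rows; the vertical offset within a row only separates points). Filled red points had an adjusted p under 0.05 in limma's test over all genes. The list of the clock reaches from -6.82 to 5.15, and that of LON-domain proteins has 1 filled point.

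Markers of liver cell types were read on the same arrays. Their calls are from the test without the slide as a block, by which 11.7% of all genes were higher and 9.35% lower at 6 weeks. Calls with the slide as a block are not given for them. Summed levels are log2 of the sum of the signals of the markers, on the scale above. For hepatocyte markers they were 11.71 to 11.94 in the 6-week knockout, against 11.95 to 11.98 in the 6-week wild type. At 12 weeks they were 11.66 to 11.81 in the knockout, against 11.79 to 11.93 in the wild type. The list of stellate cells and fibroblasts, which are of mesodermal origin, had 0 of 10 genes higher and 1 lower (Lrat) at 6 weeks by limma's test (1 and 1 at an unadjusted p under 0.05), and its summed level ran from 6.25 to 6.65 in the 6-week knockout, against 6.37 to 6.79 in the 6-week wild type. It was from 5.94 to 6.57 in the 12-week knockout, against 6.18 to 6.76 in the 12-week wild type. Endothelial markers had 1 of 8 higher and 1 lower, at 6.82 to 6.84 in the 6-week knockout, against 6.62 to 6.84 in the 6-week wild type. Of 6 hepatocyte markers 1 was higher (Apoa1). Of 4 tested neutrophil and monocyte markers 2 were higher (S100a8 by 0.74 and S100a9 by 0.90) and 1 lower (Elane), and their summed level was 2.47 to 2.64 in the 6-week knockout, against 2.70 to 2.96 in the 6-week wild type. Of 5 cholangiocyte markers 1 was higher (Sox9, by 1.81), with a summed level of 1.09 to 1.43 in the 6-week knockout, against 1.19 to 1.32 in the 6-week wild type. Of 5 T and NK cell markers 1 was lower (Cd3g), and 3 were lower and 0 higher at an unadjusted p under 0.05. Their summed level was 5.498 to 5.94 in the 6-week knockout, against 6.02 to 6.05 in the 6-week wild type. At 12 weeks 3 of them were lower by limma's test (2.56% of all genes) and 0 higher. Their summed level was then 5.19 to 5.56 in the knockout, against 5.93 to 6.66 in the wild type. Of 7 Kupffer cell and macrophage, 5 B and plasma cell, 2 adipocyte, 3 pancreas and 2 skeletal muscle markers, 0 passed limma's test at 6 weeks, and 1 of them, a pancreas marker, had an unadjusted p under 0.05. Of 5 tested markers of dividing cells 3 were higher (Mki67, Ccnb1 and Ccna2, by 1.32, 0.84 and 1.56) and their summed level was 0.50 to 0.96 in the 6-week knockout, against -0.03 to 0.48 in the 6-week wild type. It was 0.73 to 1.46 in the 12-week knockout, against 0.58 to 1.95 in the 12-week wild type. Of 4 tested erythroid markers 3 were higher and 1 lower, at 6.85 to 7.50 in the 6-week knockout, against 6.02 to 6.30 in the 6-week wild type. At 12 weeks 2 were higher and 0 lower, at 6.89 to 7.39 in the knockout, against 6.21 to 6.72 in the wild type. The part of these cells in the levels of the members was not tested.

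Genes beside the members on the chromosome were read too. Within 250 kb of a member's probe 44 other features were tested, of which 25 had a gene name and 19 were predicted loci, transcript records, intergenic regions or probes without one. Of the 44, 4 were higher and 4 lower in the knockout at 6 weeks, or 18.2% beside 21.1% of everything tested, and of the 25 named genes 2 were higher and 3 lower. Commd7, whose protein takes part in endosomal sorting, lay 68.8 kb from the Dnmt3b probe and was higher by 0.84 ± 0.08 (adjusted p = 0.000177, or 0.0323 with the slide as a fixed block). Both of its probes passed. Without the slide block, Fance, next to Ppard, was higher by 0.37 ± 0.10 (adjusted p = 0.0227), and Sun5 (-0.40), Mpp3 (-0.73) and Cd300lg (-0.25) were lower. At 12 weeks Fance was again higher in the knockout, by 0.36 (adjusted p = 0.0467), and Sun5, Mpp3 and Cd300lg did not pass. In 5 of the 44 the 6-week knockout arrays lay above the other 9 (4.5% of all genes). Fkbp5, the glucocorticoid-induced neighbour of Ppard, differed by -0.62 ± 0.21 at 6 weeks and did not pass.

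Promoters were read for the 4 genes that held to the pattern by which the genes were chosen. RefSeq on GRCm38.p6 gave the 250 bases before the start of Grk5, Ppard, Dnmt3b and Lonrf3, and Meox1 had no entry. They were searched on both strands for the E-box (CACGTG), the D-box (TTATGTAA), the core of the RORE (TAGGTCA), the cyclic AMP response element (TGACGTCA), the PPAR response element (2 copies of AGGTCA with 1 base between them) and the glucocorticoid response element (AGAACA and TGTTCT with 3 bases between them). Lonrf3 held an E-box that begins at base -45, and 6.02% of all 32851 promoters of that length hold one. These letters were not found otherwise in the 4 windows. The shares of all promoters were 0.819% for the D-box, 2.23% for the RORE core, 1.55% for the cyclic AMP response element, 0.0335% for the PPAR and 0.00913% for the glucocorticoid response element. With shares this low, the absence of these letters from 4 windows says little about the members. The promoters of Ppard and Dnmt3b were 69.6% and 75.2% G and C with 22 and 21 CpG sites, those of Grk5 and Lonrf3 49.6% and 45.6% with 13 and 9, and the medians over all promoters were 52.4% and 6. The promoter of Lonrf3 (chrX:36328159-36328408, plus strand) is shown for its E-box, in capitals, and that of Dnmt3b (chr2:153649199-153649448, plus strand) as the richest of the 4 in G and C.
Lonrf3 promoter: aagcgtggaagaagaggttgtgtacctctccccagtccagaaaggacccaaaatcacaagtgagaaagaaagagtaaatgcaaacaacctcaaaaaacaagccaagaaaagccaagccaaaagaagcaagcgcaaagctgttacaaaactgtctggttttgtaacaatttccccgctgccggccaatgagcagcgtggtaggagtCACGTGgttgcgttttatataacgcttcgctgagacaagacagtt
Dnmt3b promoter: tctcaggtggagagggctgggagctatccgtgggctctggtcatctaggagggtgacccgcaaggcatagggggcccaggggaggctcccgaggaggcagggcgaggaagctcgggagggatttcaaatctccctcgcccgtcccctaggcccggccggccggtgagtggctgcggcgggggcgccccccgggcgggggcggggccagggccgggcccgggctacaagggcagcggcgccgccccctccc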

How the data were processed

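The authors used Agilent Feature Extraction 10.7.3.1 on 1-colour arrays, per the file headers. Its processed intensity is background-subtracted and not scaled between arrays. Mean spot intensity and local background were deposited too. The authors' deposited value table held the same processed intensity (largest difference 0.497%); it is on a linear scale, not centred, carries no direction, and its column medians ran from 21.6 to 29.5. From these, log2 of the processed intensity minus the array's 75th percentile was computed. Spots of a probe were averaged, without control and outlier spots. Tested were the 29804 probes (53.5%) well above background (by most of their spots, where there were several) on all 3 arrays of some group. The probe with the highest mean stood for each gene.

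A model of group means was fitted to the 12 arrays in R 4.3.3 by limma 3.58.1 (lmFit, eBayes), with Benjamini-Hochberg adjustment over 22128 genes and a threshold of 0.05. The method was tested on simulated data with independent noise and no slide effect, which cannot show how the slide bears on the calls. SE are from that fit. "At least" marks a fold against a group below background: the mean of the brighter group over, per array, the higher of the lowest probe signal well above background and the gene's own. The members and lists were chosen with earlier results of these data known. Named besides them are up to 4 genes past the threshold per list by smallest p, 5 genes most like each member, the 10 largest gaps and neighbours within 250 kb; some genes that this rule takes are counted in their lists but not reported here by name. Dnmt1, Dnmt3a, Dnmt3l, Avpr1a's values, Fkbp5, Uncx, Meox2 and the cell markers were named after their values were seen. Alternatives were background, scaling, filter, probe choice, value table, slide, replicate number and leaving out each array. RefSeq symbols (GRCm38.p6) reached 26582 probes by accession, 2602 by symbol and 492 by synonym; 26005 kept the file's name.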

Additional observations from a re-analysis of the deposited data

Results flagged for a closer look

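For 17 of the genes named by smallest p from the related lists, the difference between genotypes itself differed between the ages. This is limma's test of the difference of differences, 12 minus 6 weeks, adjusted over all genes, of which 10.3% passed. The list genes were named for their difference at 6 weeks, which is itself part of the value tested here. Their number passing therefore cannot be set against the share over all genes. Genes named only for their gap, their likeness to a member or their place on the chromosome are not in this count. Of the named neighbours, Commd7 (-1.04, adjusted p = 0.000855) and Fkbp5 (1.37, adjusted p = 0.0160) passed too. A negative value means that knockout minus wild type was lower at 12 weeks than at 6 weeks. In the lists around GRK5 and PPAR-delta the values were -0.67 for Adra1b (adjusted p = 0.0116), -3.63 for Pdk4 (0.000608), 3.16 for Vldlr (0.00848), 1.17 for Pparg (0.0171) and 1.68 for Ppargc1b (0.0216). In the lists around DNMT3B they were -0.43 for Mbd2 (0.0134), 2.52 for Gadd45a (0.0220), -1.49 for Uhrf1 (0.0358) and 1.65 for Mat1a (0.00654). Cdkn1a had -5.31 (9.98e-05). Among clock genes Dbp had 8.06 (5.81e-06), Nfil3 -3.07 (3.89e-05), Usp2 7.14 (3.89e-05) and Tef 3.67 (8.31e-05). Among glucocorticoid- and fasting-induced genes Mt1 had 3.27 (0.00489), Mt2 3.54 (0.0120) and G6pc -3.65 (0.000860). Adra1b, Vldlr, Mbd2 and Dbp had another tested probe, which gave -0.13, 2.97, -0.38 and 8.08, so the value of Adra1b depended on the probe. The lists were chosen with earlier results known. With the slide as a fixed block, Pparg, Ppargc1b, Gadd45a, Uhrf1 and Mt2 no longer passed, with adjusted p of 0.0555, 0.0858, 0.0626, 0.181 and 0.0586.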

How the results depend on the processing

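The 6-week knockout stayed above the mean of the other 3 groups in all 5 genes under every alternative run. Normexp background moved that difference to 2.42 for Grk5, 2.15 for Dnmt3b and 0.78 for Meox1. Meox1 was not tested where probes had to be well above background on all 12 arrays. Leaving out 1 array in turn gave 2.86 to 2.95 for Grk5, 1.998 (without replicate 1 of the 6-week knockout) to 2.60 for Ppard, 2.46 to 2.69 for Dnmt3b, 1.70 to 1.91 for Lonrf3 and 1.56 to 2.17 for Meox1. The comparison within slide 2 was added after seeing the data. No genotype comparison at 6 weeks could be made within a slide.

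Counts of genes moved more. At 6 weeks 588 genes passed with the slide as a fixed block and 1227 with it as a random block, and the related lists then had 9 genes higher and 13 lower under the fixed block, against 26 and 25. Leaving out 1 array gave 2542 to 6209 genes at 6 weeks: 2928, 2632 and 3084 without replicates 1, 2 and 3 of the 6-week knockout, and 3002, 2542 and 2828 without those of the 6-week wild type. At 12 weeks 825 passed with no filter on dim probes, 737 on slide 2 alone and 680 to 2079 leaving out 1 array (730, 1031 and 680 without replicates 1, 2 and 3 of the 12-week knockout). For 12 against 6 weeks in the knockout 730 passed with no filter and 628 to 1841 leaving out 1 array (915, 628 and 705 without replicates 1 to 3 of the 12-week knockout, 848, 827 and 817 without those of the 6-week knockout). For 12 against 6 weeks in the wild type 1230 passed with no filter, 728 with the slide as a fixed and 1079 as a random block, and 980 to 3807 leaving out 1 array (3807 without replicate 1 and 980 without replicate 2 of the 12-week wild type, 1130, 1067 and 1030 without those of the 6-week wild type). The difference between ages passed in 1341 genes with no filter and in 1561 to 3317 leaving out 1 array. Genes with the 6-week knockout above the other 9 arrays numbered 1027 to 1750 leaving out 1 array, the highest without replicate 1 of the 6-week knockout. Smaller groups and more or fewer genes tested are part of these settings; otherwise the cause was not tested.

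Replicate numbers did not pair the arrays: same-numbered arrays correlated at -0.09 to 0.18 in their deviations, and 6 of 12 correlated best with their own number. With the replicate block 4061 genes passed at 6 weeks, and the lists had 25 genes higher and 26 lower.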
